A study of Caenorhabditis elegans with 24 samples.

Results

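The mRNAs described here are those of the proteins of the large (60S) ribosomal subunit. The members are defined by gene name, with no threshold on a measured value: they are the 46 genes of a list of rpl gene identifiers (*ubq-2*, which encodes a fusion of ubiquitin and a large subunit protein, among them) out of 45461 genes in the deposited table. All 46 identifiers were found in the table. Of these, 45 had a mean of at least 8 CPM (read counts scaled to a common library size, which the authors adjusted for composition) and were tested together with all other coding genes past that minimum, 8343 in all. The remaining gene, *rpl-16* (M01F1.2), is listed at 0 in all 24 libraries, and no change is given for it. The list leaves out 3 further large subunit protein genes, of which 1 passed that minimum.

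The large subunit holds the peptidyl transferase centre, which joins amino acids into a chain, and the tunnel through which the new protein leaves. Its proteins are made in near equal amounts, together with those of the small subunit, and in growing cells their mRNAs are among the most abundant and most heavily translated. The target of rapamycin pathway and the S6 kinase link the production of ribosomes to nutrients and to insulin-like signalling, and lowering either pathway extends the life span of C. elegans.

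RNA was taken from whole worms grown at 20 °C on OP50 bacteria, and all libraries are unstranded and of polyA RNA. There were 3 conditions. Wild-type N2 worms were fed ad libitum (AL) or kept under dietary restriction (DR) from day 1 of adulthood and collected after 4 days, and the third condition was the double mutant *daf-2*;*rsks-1* (DM) on the ad libitum diet, with mutations in the gene of the insulin-like receptor and in that of the S6 kinase. On a log10 scale the labels give the food as 11 for the ad libitum and 9 for the restricted diet, in CFU. By the labels the feeding of the double mutant started on day 1 of adulthood too, while its alleles and its age at collection are not given in the sources used here. The plates of the N2 worms also held carbenicillin, against bacterial growth, and FUdR, which the authors used to inhibit egg production. Whether the double mutant was given either is not stated. From each condition total mRNA and polysomal mRNA were each sequenced in 4 libraries, which makes 6 groups. Polysomal mRNA is the fraction of a sucrose gradient bound by more than 1 ribosome, so mRNAs with 1 ribosome are not in it. The study describes the N2 libraries as biological replicates of worm populations. For the double mutant nothing says whether the libraries came from separate cultures, so its p-values measure the spread between these libraries, which may be technical.

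Reads counted on genes ranged from 7960544 to 15658505 per library. The mRNA of *rsks-1* was at 76.6 to 86.5 CPM in AL total mRNA and at 12.6 to 14.5 CPM in DM total mRNA, and that of *daf-2* was at 50.1 to 56.8 and 50.7 to 53.2 CPM. The level of *rsks-1* thus went with the label of the double mutant, whereas that of *daf-2* overlapped. Reads on rRNA genes were 11.5% to 20.9% in the DR polysomal libraries and at most 7.77% in each of the other 5 groups. The libraries are of whole worms, in which fewer cells of a type and less RNA per cell cannot be told apart. Summed levels of 16 germline marker genes were 8449.8 to 8677 CPM in AL total, 6138 to 6260.2 in DR total and 6051 to 6401 in DM total mRNA, and those of 8 muscle genes were 1243 to 1276, 2738 to 2801 and 1725 to 1840.2 CPM. Of the markers of other tissues past the minimum, 1 of 8 intestinal, 6 of 7 neuronal and 2 of 4 epidermal genes were higher under DR in total mRNA and 5, 1 and 1 were lower, and 5 sperm genes summed to at most 9.15 CPM in any library.

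The summed level of the 46 genes differed between the conditions and between the mRNA pools. In total mRNA it was 65826 to 67965 CPM under AL, 86756 to 91479.6 CPM under DR and 57464 to 60813 CPM in DM. In polysomal mRNA it was 97284 to 98015 CPM under AL, 92564 to 96855 CPM under DR and 39499.5 to 47798 CPM in DM. Every DR library was therefore above every AL library in total mRNA and below every AL library in polysomal mRNA, and every DM library was below every AL library in both pools. Replicate 1 of DM polysomal mRNA, with 47798 CPM, stood above the other 3, which were at 39499.5 to 41616 CPM. The order of the AL and DR polysomal sums turned with the scaling: with median-ratio factors the group means were 95580.0 CPM under AL and 97511 CPM under DR, and with plain total counts 89283 and 79865 CPM. As plain shares of the reads on genes, the AL and DM total libraries overlapped. They were at 6.43% to 6.87% and at 6.32% to 6.61%.

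**Figure D1:**
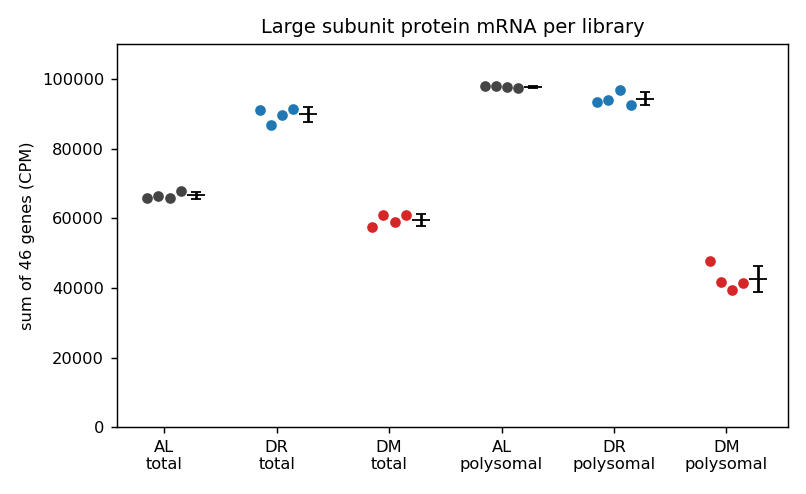
Sum of the deposited CPM of the 46 large subunit protein genes (y axis, CPM) in each of the 24 libraries (points), by group (x axis), with the mean and SD of the 4 libraries beside them. The sum rises from AL to DR in total mRNA only, and the DM polysomal libraries, at 39499.5 to 47798 CPM, are the lowest of the 6 groups.

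Levels of single members spanned a wide range. Per kilobase of annotated exon, the mean over the 24 libraries had a median of 2864 CPM over the 46 genes and reached 6393 CPM in *rpl-10*, a protein next to the peptidyl transferase centre. The lowest levels among the genes tested, on the same scale, were 56.5 CPM for *rpl-37*, 285 CPM for *rpl-24.2* and 554 CPM for *rpl-25.1*. Each of these 3 has a much more abundant copy or relative in the list, *rpl-37.1* at 2824 CPM, *rpl-24.1* at 3266 CPM and *rpl-25.2* at 2739.8 CPM per kilobase. Reads that fit both copies may have been left out or counted on either, and the sequence identity of the copies was not computed. Where copies are near identical, their levels and the split between them are uncertain. In the current annotation *rpl-7A*, *rpl-39* and *rpl-28* share 7.82%, 7.63% and 4.44% of their exon bases with a gene on the other strand, and since the libraries are unstranded these reads cannot be told apart. The other members share at most 3.70%.

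The first comparison asks how DR changed the abundance of these mRNAs in the worm. In total mRNA, 43 of the 45 genes were higher under DR than under AL, 1 was lower and 1 did not pass the test (limma, adjusted p under 0.05, with no minimum change). The median log2 change was 0.45, that of all 8343 genes was -0.069, and 34.7% of all genes were called higher and 45.2% lower. None of the 45 changed by 2-fold, compared with 3.57% of all genes higher and 8.2% lower past that bound. The largest increase was in *rpl-11.2*, one of the pair of genes for RPL11, a protein that forms a complex with 5S rRNA. Its levels under AL were 977, 989, 911 and 1003 CPM and under DR 1812, 1690.3, 1779 and 1815 CPM, a log2 change of 0.87 ± 0.042 (SE, adjusted p = 7.72e-21). All 4 DR libraries were well above all 4 AL libraries.

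The next largest increase was in *rpl-7*. It had 3005, 2913, 3013 and 3025 CPM in AL and 5208, 4961, 5150.5 and 5242 CPM in DR total mRNA, a log2 change of 0.78 ± 0.034 (SE, adjusted p = 2.79e-22), and its groups did not overlap. Next to it came *rpl-33* with 0.75, and *rpl-2* and *rpl-28* with 0.66 each.

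The only gene that fell was *rpl-7A*, with 649.7, 678, 693 and 677 CPM under AL and 609, 576, 589.9 and 620.2 CPM under DR. Its log2 change was -0.17 ± 0.043 (SE, adjusted p = 0.000462), a small difference without overlap. The smallest increase was in *rpl-19*, a protein at the end of the exit tunnel, with 2660.2, 2695, 2669 and 2718 CPM against 2969, 2766, 2845 and 2961 CPM. Its change of 0.10 ± 0.042 (SE, adjusted p = 0.0235) no longer passed without AL total replicate 1 (adjusted p = 0.051), DR total replicate 1 (0.0744) or DR total replicate 4 (0.07), nor with no filter on low values (0.0519). The gene that did not pass, *rpl-37*, was also the least abundant of those tested, at 17.8 ± 1.96 CPM in AL and 19.7 ± 2.3 CPM in DR total mRNA (SD, n = 4), with an adjusted p of 0.225. Its DR libraries, at 16.7, 20.2, 19.6 and 22.3 CPM, overlapped with those of AL.

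By position in the subunit, the 3 genes for the complex with 5S rRNA (*rpl-5*, *rpl-11.1* and *rpl-11.2*), the 4 genes for proteins around the peptidyl transferase centre (*rpl-2*, *rpl-3*, *rpl-4* and *rpl-10*) and the 8 genes for proteins at the tunnel exit were all higher under DR in total mRNA, with medians of 0.47, 0.48 and 0.42. Within each of these groups the changes ranged from near 0.1 upward: 0.12 for *rpl-5*, 0.16 for *rpl-3* and 0.10 for *rpl-19*. Other mRNAs of the translation apparatus were also mostly higher. Of 32 small subunit protein genes 31 rose (median 0.36), as did the 3 stalk protein genes (0.43), 6 of 6 elongation factor genes (0.49), 25 of 39 mitochondrial large subunit protein genes (0.37, with 4 lower) and 14 of 20 ribosome biogenesis genes (0.36, with 4 lower). The 1 large subunit protein gene tested from outside the list was lower, at -0.62. In the same comparison 11 of 16 germline marker genes were lower and 3 higher, and 8 of 8 muscle genes were higher with a median of 1.12. Their part in these changes was not tested.

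In polysomal mRNA the members did not move together. There 14 were higher under DR than under AL, 29 were lower and *rpl-2* and *ubq-2* did not pass the test, with 34.5% of all genes called higher and 47.6% lower. The median log2 change was -0.26 against -0.098 for all genes. The SD of the log2 change across the 45 genes was 0.56, compared with 0.21 in total mRNA. Of the 43 genes that were higher in total mRNA, 27 were lower in polysomal mRNA, 14 were higher there too and 2 did not pass. The 21 of 32 lower and 9 higher small subunit protein genes had a median of -0.16. In the same pool the germline markers summed to 6006 to 6463 CPM under AL and 3655 to 3820.5 CPM under DR, and the muscle genes to 1251 to 1340.1 and 4288 to 4519.7 CPM. Their part in the members' changes, and that of the rRNA reads, was not tested.

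The members followed above in total mRNA went different ways in polysomes. The level of *rpl-7* was 4552, 4534, 4500.4 and 4519 CPM in AL and 6243, 6286, 6353 and 6238 CPM in DR polysomal mRNA, a rise of 0.47 on the log2 scale without overlap. That of *rpl-19* was 4570.5, 4543, 4503 and 4451 CPM against 3540.0, 3612, 3698 and 3467 CPM, a change of -0.34, so that its slight rise in total mRNA stood beside a decrease in polysomes. For *rpl-7A*, lower in both pools, the polysomal values were 905, 871, 947 and 861 CPM under AL and 582, 573, 612 and 573 CPM under DR (-0.61). The scarce *rpl-37* had 18.3, 24.18, 26.6 and 23.8 CPM and 11.7, 14.7, 11.6 and 16.3 CPM (-0.75), again with groups that did not overlap.

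The extremes in polysomal mRNA were 2 genes that have a paralog, and 1 that does not. The level of *rpl-11.2* was 593, 585, 594 and 575 CPM in AL and 1663, 1667, 1786 and 1568 CPM in DR polysomal mRNA, a log2 change of 1.51 ± 0.042 (SE, adjusted p = 9.59e-29). The level of *rpl-25.1*, one of the pair of genes for a protein at the tunnel exit, was 166, 153, 162 and 155 CPM in AL and 381, 380.4, 429 and 359 CPM in DR, a change of 1.28 ± 0.051 (SE, adjusted p = 1.09e-23). Each of these rose by more than 2-fold with no overlap, while their paralogs *rpl-11.1* and *rpl-25.2* fell by 0.27 and 0.99 on the log2 scale. At the other end, *rpl-36.A* fell from 2748, 2835, 2911 and 2973 CPM to 1285, 1324, 1335 and 1353 CPM, a change of -1.11 ± 0.043 (SE, adjusted p = 2.57e-24). Genes such as *rpl-10* (0.51), *rpl-13* (0.50), *rpl-15* (0.48) and *rpl-4* (0.45) were among the 14 that rose, and *rpl-14*, *rpl-29*, *rpl-37.1* and *rpl-38*, from -0.86 to -0.84, among those that fell.

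**Figure D2:**
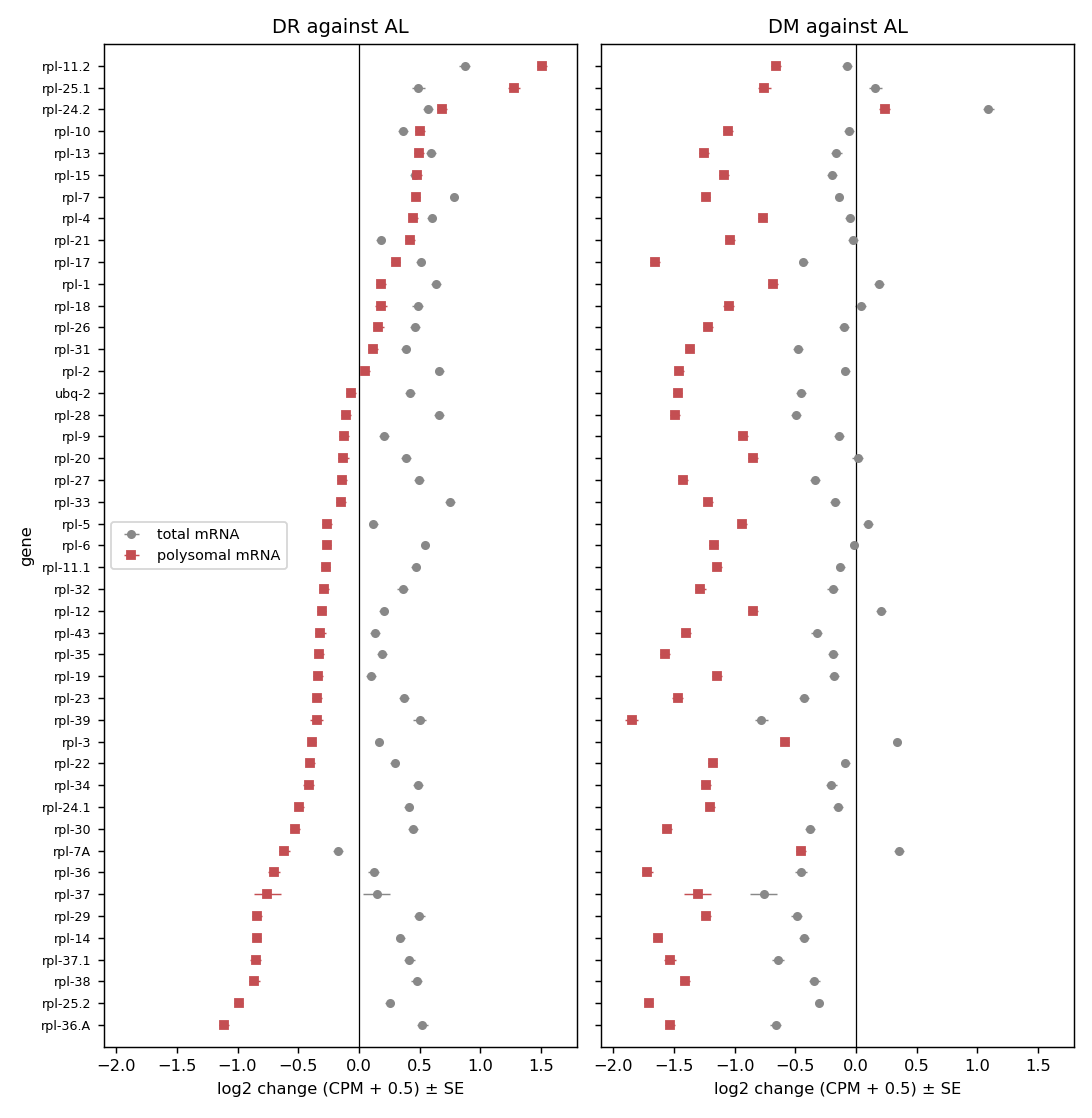
Log2 change (x axis, of CPM + 0.5, with the SE from limma) of each of the 45 genes tested (y axis, ordered by the DR change in polysomal mRNA), for DR against AL (left) and DM against AL (right), in total mRNA (grey circles) and polysomal mRNA (red squares). Under DR the polysomal changes run from -1.11 to 1.51 around total mRNA changes that are nearly all positive, and in DM all polysomal changes lie below those in total mRNA.

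The log2 ratio of polysomal to total mRNA was compared within each condition. Each level is relative to its own pool, so the ratio does not give the share of an mRNA's molecules that is on polysomes. The paper states that global translation is lower under DR, which such relative values do not show. Under AL, 42 of the 45 genes were higher in polysomal than in total mRNA, 2 were lower and *rpl-24.2* did not pass (it did as higher with median-ratio factors, at 0.10, and with TMM over the rows tested, at 0.094), with 44.8% of all genes called higher and 41.6% lower. The median was 0.53 against 0.043 for all genes. The 2 lower genes were *rpl-11.2* at -0.72 ± 0.042 (SE) and *rpl-25.1* at -0.84 ± 0.051, and the highest was *rpl-11.1* at 1.04 ± 0.037. In AL total mRNA *rpl-11.1* was at 1925, 1891, 1854 and 1880.1 CPM and in AL polysomal mRNA at 3893, 3897, 3786 and 3924 CPM, a higher level in every polysomal library, while its paralog moved the other way.

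Under DR the members were divided: 17 were higher in polysomal mRNA, 21 were lower and 7 did not pass, with 43.4% and 45.4% of all genes called, and their median of -0.048 was close to that of all genes (-0.023). This division depends on the scaling of the libraries. With plain total counts 6 were higher and 32 lower (median -0.35), whereas with median-ratio factors, TMM over the rows tested or edgeR 21 were higher and 15 lower (medians of 0.065 to 0.066). The widest ratios were 0.74 for *rpl-15* and 0.69 for *rpl-10*, and -1.15 for *rpl-29*, -1.10 for *rpl-38* and -1.06 for *rpl-36.A*.

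In DM, 43 were lower in polysomal than in total mRNA and the other 2, *rpl-11.1* at 0.022 ± 0.037 and *rpl-37* at -0.17 ± 0.11 (SE), did not pass, with 43.4% of all genes called lower and 41% higher. The median was -0.53 against -0.0062 for all genes, and -0.60 without DM polysomal replicate 1. With median-ratio scaling *rpl-11.1* passed as higher (0.13). The lowest ratios belonged again to *rpl-25.1* (-1.75) and *rpl-11.2* (-1.31).

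Small subunit protein genes were divided in a similar way. Under AL 29 of 32 were higher in polysomal mRNA and 1 lower (median 0.54), under DR 13 and 11 (0.023), and in DM 1 and 30 (-0.49). The stalk protein genes *rla-0* and *rla-1*, with -1.42 and -0.93 under AL, differed from *rla-2*, with 0.81. Elongation factor genes were mostly lower in polysomal mRNA in each condition, 4 of 6 under AL and 5 of 6 both under DR and in DM. Mitochondrial large subunit protein genes had medians of 0.16, -0.020 and 0.14, and ribosome biogenesis genes of -0.073, -0.18 and 0.054. The large subunit protein gene from outside the list was lower in polysomal mRNA in each condition, at -1.35, -0.61 and -1.65.

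**Figure D3:**
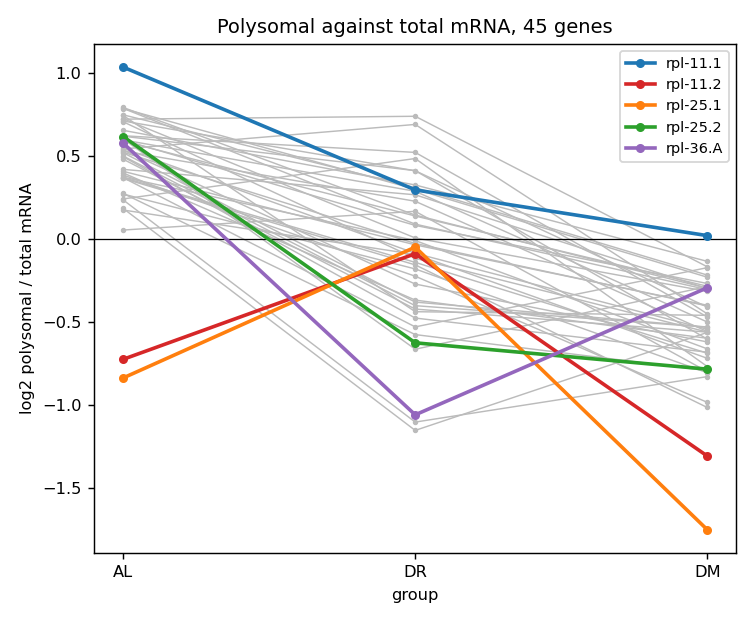
Log2 ratio of polysomal to total mRNA (y axis) of the 45 genes (1 line each) in AL, DR and DM (x axis), with 5 genes in colour. Most lines start above 0 under AL and end below 0 in DM, and *rpl-11.2* and *rpl-25.1* start at -0.72 and -0.84 instead.

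The difference in this ratio between DR and AL, the differential polysome association ratio or DPAR, was tested as the interaction term of the fit. It was lower for 38 of the 45 genes and higher for 4, with 32% of all genes called lower and 35.4% higher, and 3 genes (*rpl-13*, *rpl-15* and *rpl-24.2*) did not pass. The median was -0.52 against 0.022 for all genes. At a change of at least 2-fold, 6 of the 45 genes were lower, compared with 1.79% of all genes: *rpl-36.A* at -1.64 ± 0.06 (SE), *rpl-29* at -1.34 ± 0.061, *rpl-38* at -1.34 ± 0.062, *rpl-37.1* at -1.27 ± 0.068, *rpl-25.2* at -1.24 ± 0.052 and *rpl-14* at -1.18 ± 0.053. Total-count scaling gave 12 such genes. The 4 higher genes were *rpl-25.1* at 0.79 ± 0.072, *rpl-11.2* at 0.64 ± 0.06, *rpl-21* at 0.24 ± 0.056 and *rpl-10* at 0.15 ± 0.058. With total-count scaling 2 were higher. The call for *rpl-24.2* (0.11) turned on the processing: it passed as higher with median-ratio factors (0.18), TMM over the rows tested (0.19) and edgeR (0.19) and without AL polysomal replicate 4 (0.15), and was at -0.049 with total counts.

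The values behind the lowest DPAR were these. In total mRNA, *rpl-36.A*, whose protein touches the tRNA that leaves the ribosome, was at 1880.1, 1914, 1942 and 1935 CPM under AL and 2751, 2692, 2781 and 2809.5 CPM under DR, a rise of 0.52 on the log2 scale. Its polysomal level fell under DR, as given above, so total and polysomal mRNA went in opposite directions. The small protein gene *rpl-38*, which in mice affects the translation of homeobox mRNAs, went from 810.4, 835, 823 and 861 to 1169, 1095, 1199 and 1172 CPM in total mRNA. In polysomal mRNA it went from 933, 981, 994 and 1017 CPM under AL to 527, 523, 559 and 549 CPM under DR. Again the total rose, by 0.48, and the polysomal level fell, by 0.86, with no overlap in either pool. Of the small subunit genes 27 of 32 had a lower DPAR and 2 a higher one (median -0.49), and of the elongation factor genes 4 of 6 had a lower one. The large subunit protein gene from outside the list had a higher one, at 0.74. In the same contrast 7 of 8 muscle and 7 of 8 intestinal marker genes had a higher DPAR, with medians of 0.49 and 0.47, and 6 and 7 of 16 germline genes had a higher and a lower one. Their part in the members' values was not tested.

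The double mutant was compared with the same AL libraries, so its values are not independent of those for DR. In total mRNA, 31 of the 45 genes were lower in DM than under AL, 7 were higher and 7 did not pass, with 48.4% of all genes called lower and 29.4% higher. The median of -0.17 was close to that of all genes (-0.11). With TMM factors over the rows tested, 19 were lower and 11 higher, and with plain total counts 17 and 11, so the count of lower genes is not firm. The gene furthest from the others was *rpl-24.2*. It had 118, 116, 116 and 116 CPM under AL and 245, 249.7, 254 and 245 CPM in DM, a log2 change of 1.09 ± 0.044 (SE, adjusted p = 2.94e-23). It was the only one of the 45 genes past 2-fold in this comparison, compared with 4.52% of all genes higher and 3.22% lower past that bound. Its RefSeq symbol is *rsl-24D1*, the name of a factor that in yeast joins the large subunit while it is being assembled and leaves before it is mature. The ribosome biogenesis genes were higher in 12 of 20 cases and lower in 4 in the same comparison, with a median of 0.32. Elongation factor genes were higher in 4 of 6 cases and lower in 1 (0.33). Small subunit protein genes were lower in 25 of 32 cases and higher in 3 (-0.23). Stalk protein genes were lower in 3 of 3 cases (-0.36), and mitochondrial large subunit protein genes in 31 of 39, with 2 higher (-0.34). A link of *rpl-24.2* with any of these lists was not tested. Among the tissue markers 12 of 16 germline and 6 of 8 intestinal genes were lower and 8 of 8 muscle genes higher in DM total mRNA, with medians of -0.41, -0.34 and 0.59, and their part in the members' changes was not tested.

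Higher genes other than *rpl-24.2* were *rpl-7A* at 0.35, *rpl-3* at 0.34, *rpl-12* at 0.21, *rpl-1* at 0.19, *rpl-25.1* at 0.16 and *rpl-5* at 0.098. For *rpl-7A* the DM libraries had 819, 877, 853 and 898 CPM, all above the AL libraries, so that the gene that was lower under DR was higher here. The lowest change was in *rpl-39*, which encodes the smallest protein of the list and lies in the exit tunnel. It was at 792, 831, 845 and 896 CPM under AL and 517, 451, 522 and 469.9 CPM in DM, a change of -0.78 ± 0.052 (SE, adjusted p = 2.13e-16). The poorly expressed *rpl-37* came next, from 16.7, 15.5, 19.2 and 19.6 CPM to 10.5, 10.4, 10.8 and 9.23 CPM, or -0.76 ± 0.11 (SE, adjusted p = 1e-07), which is an estimate with a wider error. Its abundant relative *rpl-37.1* changed by -0.64 ± 0.048 (SE). Without AL total replicate 3, *rpl-11.2* passed as lower at -0.10, and it did so in a fit of only the groups compared (-0.075). Of the genes followed for DR, in DM total mRNA *rpl-7* was at 2641, 2767, 2626 and 2810.0 CPM and *rpl-19* at 2282, 2415, 2355 and 2414 CPM, or -0.14 and -0.18, changes that did not pass with total counts, TMM over the rows tested or edgeR. The level of *rpl-38* was 664, 625, 691 and 646 CPM and that of *rpl-36.A* was 1187, 1202, 1219 and 1239 CPM, or -0.34 and -0.66. Under DR, *rpl-39* had 1221, 1105, 1255 and 1185 CPM in total and 781, 753, 814 and 850.5 CPM in polysomal mRNA, so its total level was highest under DR and lowest in DM.

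In polysomal mRNA 44 of the 45 genes were lower in DM than under AL, with 45.9% of all genes called lower and 33% higher, and the median was -1.24 against -0.082 for all genes. At least 2-fold lower were 34 of the 45, compared with 6.2% of all genes, and 18 with total-count scaling. Without DM polysomal replicate 1 the counts were again 44 and 34. The lowest value was that of *rpl-39*, which went from 963, 996, 1034 and 1081 CPM to 319.9, 266, 258 and 289 CPM, a change of -1.85 ± 0.052 (SE, adjusted p = 1.06e-28). After it came *rpl-36* (-1.72), *rpl-25.2* (-1.71) and *rpl-17* (-1.66). The only gene that was higher was again *rpl-24.2*, with 119.3, 118, 117 and 130.3 CPM under AL and 163, 135, 135 and 139.7 CPM in DM. Its change of 0.24 ± 0.044 (SE, adjusted p = 8.1e-06) was well below that in total mRNA. In the same libraries *rpl-7* was at 2080.1, 1874, 1831 and 1895 CPM, *rpl-19* at 2339, 1982, 1864 and 1991 CPM and *rpl-38* at 426, 349, 352 and 355 CPM. The level of *rpl-36.A* was 1159, 953, 912 and 949 CPM, that of *rpl-7A* 748, 635, 601 and 639.5 CPM and that of *rpl-37* 9.97, 9.86, 7.82 and 8.59 CPM. All 6 were below their AL polysomal libraries without overlap, and replicate 1 was the highest of the 4 in each. Small subunit protein genes were lower in 31 of 32 cases, with a median of -1.25 and 25 of them past 2-fold. Ribosome biogenesis genes were higher in 13 of 20 cases and lower in 4 (0.23). In the same contrast 7 of 8 intestinal genes were lower (median -1.01, with 4 of them past 2-fold) and 8 of 8 muscle genes higher (0.60), and 6 and 8 of 16 germline genes were higher and lower (-0.11). The intestinal genes summed to 39571 to 44846 CPM in AL and 20917 to 21196 CPM in DM polysomal mRNA. Their part in the members' decrease was not tested.

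The DPAR of DM against AL was lower for all 45 genes tested, with 28.6% of all genes called lower and 26.1% higher. The median was -1.03 against -0.014 for all genes, and 27 genes were lower by at least 2-fold, compared with 1.22% of all genes. Over the other scalings the 45 remained lower, while total-count scaling left 6 past 2-fold. The lowest were *rpl-25.2* at -1.40 ± 0.052 (SE), *rpl-35* at -1.38 ± 0.057 and *rpl-2* at -1.37 ± 0.053, and the highest were *rpl-37* at -0.54 ± 0.16 and *rpl-11.2* at -0.58 ± 0.06. For *rpl-35*, a protein at the tunnel exit, total mRNA was 1626, 1649, 1606 and 1602 CPM under AL and 1369, 1445, 1396 and 1473 CPM in DM. Its polysomal mRNA was 2162, 2079, 2129 and 1990.0 CPM under AL and 802, 701, 665 and 653 CPM in DM. The total level thus moved little, by -0.19 on the log2 scale, and the polysomal level by -1.57. The total change did not pass with total counts (-0.067), TMM over the rows tested (-0.079) or edgeR (-0.078). Under DR the gene was at 1814, 1813, 1849 and 1919 CPM in total and 1679, 1654, 1674 and 1633 CPM in polysomal mRNA, above AL in the first and below it in the second.

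All 32 small subunit genes had a lower DPAR in DM as well (median -1.02, with 18 of them past 2-fold), as had 3 of 3 stalk (-0.79) and 6 of 6 elongation factor genes (-0.71). The large subunit protein gene from outside the list had a lower one too, at -0.30. Mitochondrial large subunit protein genes had 7 lower and 9 higher of 39 with a median of 0.051, and ribosome biogenesis genes 7 lower and 6 higher of 20 with -0.050. Among the tissue markers 13 of 16 germline genes had a higher DPAR in DM, with a median of 0.25, and 6 of 8 intestinal genes a lower one, with a median of -0.40. Their part in the members' values was not tested.

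Set directly against DR, DM total mRNA had 40 of the 45 genes lower and 3 higher (*rpl-24.2* at 0.52, *rpl-7A* at 0.52 and *rpl-3* at 0.17), with 42.2% and 40.2% of all genes called, and a median of -0.60 against -0.015. In polysomal mRNA 44 were lower and *rpl-7A* alone was higher (0.16), with 41% and 42.1% of all genes called and a median of -1.02 against 0.010. There 23 genes were lower by at least 2-fold, compared with 8.32% of all genes, and 11 with total-count scaling. Without DM polysomal replicate 1 the median was -1.09. The lowest were *rpl-11.2* at -2.17 ± 0.042 (SE) and *rpl-25.1* at -2.03 ± 0.051. In the same polysomal contrast 8 of 8 muscle (median -1.14), 7 of 8 intestinal (-1.10), 7 of 7 neuronal (-0.64) and 3 of 4 epidermal marker genes (-1.52) were lower and 12 of 16 germline genes higher (0.56). In total mRNA 7 of 8 muscle genes were lower (-0.62) and 10 of 16 germline genes higher (0.20). Their part in the members' values was not tested.

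The paralogs were compared by the log2 ratio of their levels within each library, on which the scaling of the library cancels apart from the pseudocount. For 3 pairs and 7 comparisons this gave 21 exact permutation tests of 4 against 4 libraries, two-sided, in which the smallest possible p is 0.0286. In 20 of the 21 the groups did not overlap and p was 0.0286 (0.03 after adjustment over the 21).

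In the first pair, *rpl-11.1* (T22F3.4) and *rpl-11.2* (F07D10.1), *rpl-11.1* was the more abundant in each library. In AL the ratio was 1.95-fold in total and 6.60-fold in polysomal mRNA. The difference in log2 ratio was 1.76 between polysomal and total mRNA under AL, 0.38 under DR and 1.33 in DM, all favouring *rpl-11.1* in polysomes. The pair was closest to equal in DR worms. There *rpl-11.1* had 2630.4, 2552, 2613 and 2654 CPM in total and 3209, 3293, 3170.0 and 3172 CPM in polysomal mRNA, and *rpl-11.2* had the values given above. From AL to DR the log2 ratio shifted by -0.40 in total and by -1.78 in polysomal mRNA, both towards *rpl-11.2*. In DM it shifted by -0.49 in polysomal mRNA, while in total mRNA the shift of -0.055 was within the spread of the libraries (exact p = 0.143). In DM total mRNA *rpl-11.1* was at 1699, 1769.8, 1693 and 1739.6 CPM and *rpl-11.2* at 872, 965, 904 and 944 CPM, and in DM polysomal mRNA they were at 1958, 1754, 1606 and 1706 CPM and 416, 365, 346 and 364 CPM. The polysomal level of *rpl-11.2* in DM was the lowest of its 6 groups. Its ratio of polysomal to total mRNA under DR, -0.087 ± 0.042 (SE), did not pass (adjusted p = 0.052), and its direction was not firm. It passed as lower without DR total replicate 2 or DR polysomal replicate 3 (-0.11 and -0.12), in a fit of only the groups compared (adjusted p = 0.0119) and with total counts (-0.39), and was at 0.025 to 0.026 with median-ratio factors, TMM over the rows tested and edgeR.

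In the pair *rpl-25.1* (F55D10.2) and *rpl-25.2* (F52B5.6), *rpl-25.2* was the more abundant. In total mRNA *rpl-25.1* had 284, 288, 269 and 295 CPM under AL, 404, 386, 390.3 and 418 CPM under DR and 299, 334, 304 and 335 CPM in DM. In the same libraries *rpl-25.2* had 1374, 1425, 1423 and 1406 CPM, 1681, 1649, 1688 and 1694 CPM and 1110.1, 1182, 1106 and 1158 CPM. Both were higher under DR than under AL, and in DM *rpl-25.1* was higher and *rpl-25.2* lower. In polysomal mRNA *rpl-25.2* had 2210.4, 2209.8, 2105 and 2121 CPM under AL, 1056, 1073, 1119.7 and 1105 CPM under DR and 732, 662, 612 and 645 CPM in DM, and *rpl-25.1* in DM had 107, 96.3, 85.5 and 88.8 CPM. The log2 ratio of *rpl-25.1* to *rpl-25.2* moved by -1.46 from total to polysomal mRNA under AL and by -0.97 in DM. Under DR it moved the other way, by 0.58. From AL to DR the ratio rose by 2.27 in polysomal mRNA, the largest shift of the 21, and by 0.24 in total mRNA. In DM it rose by 0.47 in total and 0.95 in polysomal mRNA.

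The third pair is less alike, since *rpl-24.1* (D1007.12) encodes a protein of the mature subunit at the face towards the small subunit, and *rpl-24.2* (C03D6.8) carries the name of an assembly factor. In total mRNA *rpl-24.1* was at 1674, 1686, 1663 and 1731 CPM under AL, 2251, 2150.3, 2266 and 2306 CPM under DR and 1493, 1518, 1508 and 1569.8 CPM in DM. It was highest under DR and lowest in DM, without overlap, whereas *rpl-24.2* was highest in DM. The change of *rpl-24.1* from AL to DM, -0.15, did not hold under other scalings. It did not pass with total counts (-0.026), TMM over the rows tested (-0.038) or edgeR (-0.038). Under DR *rpl-24.2* was at 173, 169, 179.9 and 170.1 CPM in total and 186, 208, 192 and 194 CPM in polysomal mRNA. Polysomal levels of *rpl-24.1* were 2456, 2419, 2397 and 2423 CPM under AL, 1702, 1696, 1791 and 1712 CPM under DR and 1201, 1021, 972 and 1037 CPM in DM. From AL to DR the log2 ratio of *rpl-24.1* to *rpl-24.2* fell by 1.17 in polysomal mRNA and by 0.16 in total mRNA, the latter no longer past 0.05 without AL total replicate 4. From AL to DM it fell by 1.24 in total and 1.44 in polysomal mRNA. Between total and polysomal mRNA it rose by 0.47 under AL and 0.27 in DM, and fell by 0.55 under DR.

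**Figure D4:**
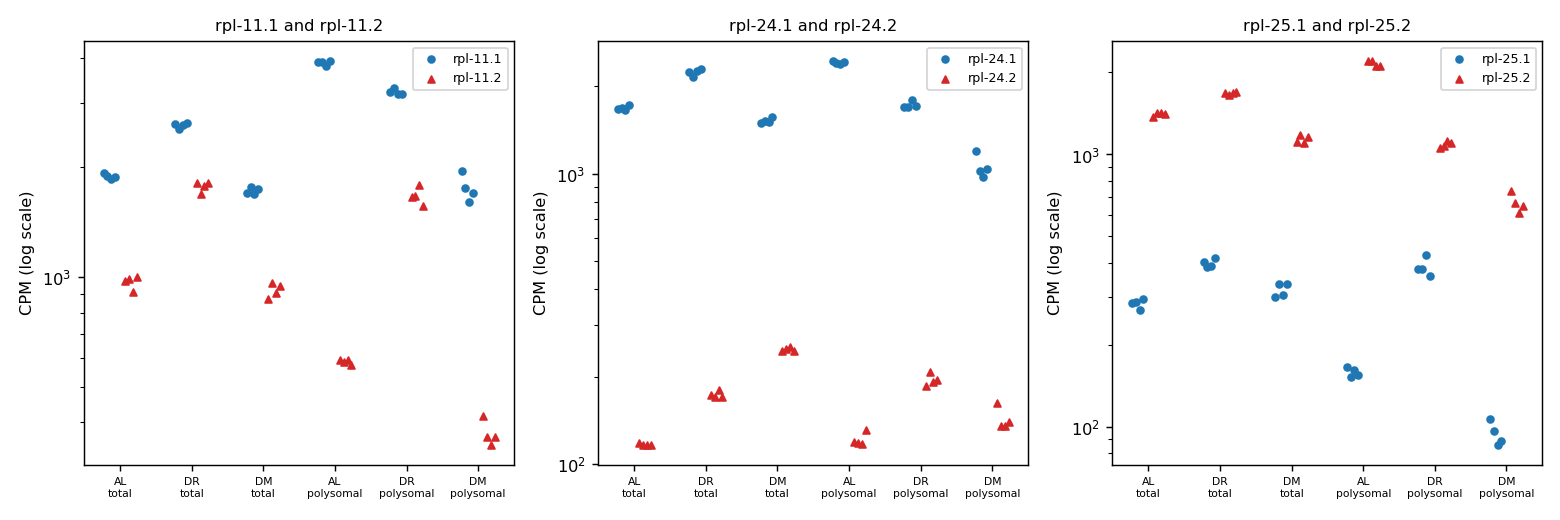
Levels of the 3 pairs of paralogs in CPM (y axis, log scale) in the 4 libraries of each group (x axis), with 1 colour and symbol for each gene. The distance within the pairs *rpl-11.1* and *rpl-11.2* and *rpl-25.1* and *rpl-25.2* is widest in AL polysomal mRNA, and *rpl-24.2* is highest in DM total mRNA, at 245 to 254 CPM.

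The 2 genes whose pattern stood apart, *rpl-11.2* and *rpl-25.1*, are the only 2 of the 46 that lie on the X chromosome in the annotation. Their ratio of polysomal to total mRNA under AL was -0.72 and -0.84, whereas the 1052 genes tested on the X chromosome had a median of 0.48 and those on autosomes of -0.046. From AL to DR in polysomal mRNA the X-linked genes had a median of -0.045. Since the 2 genes were picked for their values, this is a description.

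In some of the comparisons, changes of the members also went with the annotated exon length of their genes. The annotated exon length of the 45 genes ran from 236 bases in *rpl-39* to 1456 bases in *rpl-3* with a median of 534, compared with a median of 1505 for all genes tested. In the comparison of DM with AL in total mRNA, Pearson's r with log2 length across the 45 genes was 0.64 and Spearman's rho 0.77, and across all 8343 genes 0.066 and 0.14. The 9 genes under 400 bases were all lower in DM, from -0.78 to -0.20, while of the 10 genes of at least 700 bases 5 were higher and 3 lower, from -0.18 to 0.35. Of all genes 48.4% were called lower and 29.4% higher in this comparison. The ratio of polysomal to total mRNA under DR had an r of 0.59 and a rho of 0.58, with the 9 shortest genes from -1.15 to -0.12 and all lower. Across all 8343 genes the sign was opposite, with an r of -0.28 and a rho of -0.29. Of all genes 45.4% were called lower and 43.4% higher for this ratio under DR. With median-ratio factors, TMM or edgeR the median of all genes moved up by 0.11. The direction of the short gene at -0.12 is therefore not firm. Under AL and in DM the ratio had an r of 0.080 and 0.093 across the members and -0.22 and -0.25 across all genes. The change from AL to DR in total mRNA had an r of 0.0020 across the members and 0.058 across all genes. These are correlations across genes, which are not independent replicates and share libraries, and the bounds of 400 and 700 bases were set after the values were seen.

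**Figure D5:**
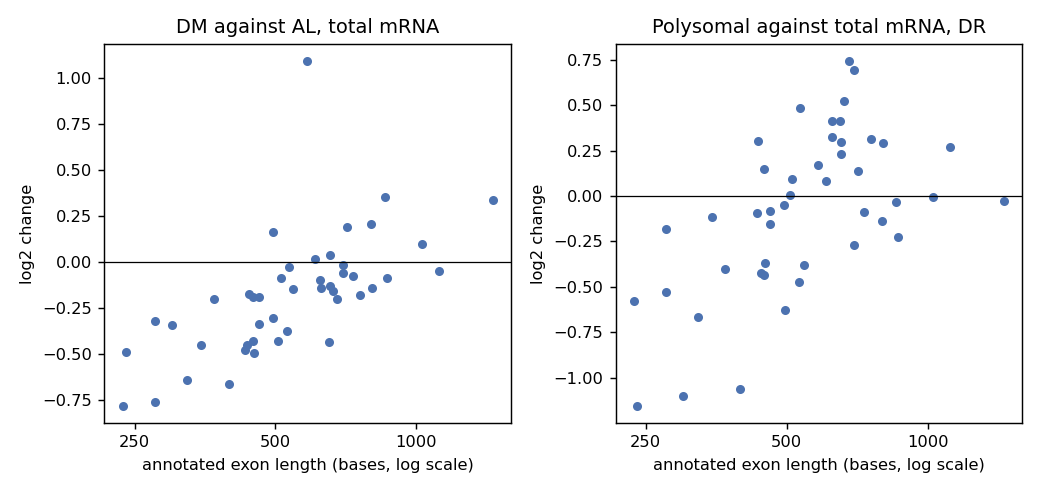
Log2 change (y axis) of the 45 genes against their annotated exon length (x axis, bases, log scale), for DM against AL in total mRNA (left) and for polysomal against total mRNA under DR (right). In both, the genes under 400 bases lie below 0, and *rpl-24.2*, at 1.09, stands above the others on the left.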

How the data were processed

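Reads were mapped by the authors with TopHat against WS220, assigned to genes with HTSeq (0.6.1 in the submitters' processing notes) and normalised in edgeR. The deposited table holds a signal in CPM, a gene's reads over the library's reads times a composition factor (0.808 to 1.16). All 24 columns were used. Of the values, 100% were whole reads within 0.05 reads, so reads were recovered for the count test.

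Coding genes with a mean of at least 8 CPM were tested (8343) on log2(CPM + 0.5) with limma (version 3.58.1, R 4.3.3), trended variance, all 24 libraries in 1 fit, 11 contrasts and Benjamini-Hochberg adjustment over all genes tested. Calls are at an adjusted p under 0.05, and where stated also at 2-fold. A fold change on this scale understates that of a low gene. The fit had been planned for plain CPM. Tested on simulated reads with 200 changed genes of 8343, it recovered, for DR against AL in total mRNA, 100% of the genes changed by 1 on the log2 scale and 95% of those changed by 0.5, with 8 false calls, and for the DPAR of DM 99% and 71%, with 6 false calls. The simulated reads had 1 dispersion for all genes, balanced changes in 1 group and no difference in composition. They therefore do not cover errors from the scaling of the libraries. The median SE of a member's log2 change between groups was 0.041.

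Gene names, types, lengths and overlaps come from Ensembl release 115 (44933 of 45461 identifiers matched) and RefSeq symbols. Its build differs from the authors' build, so no coordinates are given. The members and lists were chosen with earlier results of these data known. Values in every library are given for the 3 pairs of paralogs and for the 2 highest and 2 lowest members in DR against AL and DM against AL, in total mRNA and DPAR; other members named were chosen after their values were seen. Alternatives were other pseudocounts, filters, scalings, gene types and fits, edgeR (4.0.16) on the recovered reads, a replicate block, and leaving out each library. Chi-square over degrees of freedom ran from 1.26 to 32.0 over the 36 pairs of libraries within a group, so none was an exact copy. The lowest were 1.26 for DR total replicates 1 and 4, 1.30 for DM total replicates 2 and 4 and 1.35 for DM polysomal replicates 2 and 4. Such pairs differed little beyond counting noise, so the p-values may rest on a spread that is partly technical.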

Additional observations from a re-analysis of the deposited data

Results flagged for a closer look

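The level of 1 library stood far from the other 3 of its group in 4 of the 90 groups of values checked for the members tested library by library, where chance alone marks about 1 in 20. The gap to the nearest library, as a share of the group's range, was 0.925 for *rpl-38* and 0.834 for *rpl-36.A* in DM polysomal mRNA. Both come from replicate 1, at 426 against 349 to 355 CPM and at 1159 against 912 to 953 CPM, the library with the highest summed level of the members in its group. In AL polysomal mRNA *rpl-24.2* had a share of 0.835, with replicate 4 at 130.3 and the others at 117 to 119.3 CPM. In DR polysomal mRNA *rpl-24.1* had a share of 0.835, with replicate 3 at 1791 against 1696 to 1712 CPM.

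The change between conditions differed between total and polysomal mRNA by at least 2-fold, by the test of the interaction, in several of the members whose libraries are given. For DR against AL these were *rpl-36.A* (-1.64), *rpl-38* (-1.34) and *rpl-25.2* (-1.24). For DM against AL they were *rpl-25.2* (-1.40), *rpl-35* (-1.38), *rpl-7* (-1.10), *rpl-39* (-1.07), *rpl-38* (-1.07), *rpl-24.1* (-1.05) and *rpl-11.1* (-1.02). The values of these members in each library stand in the report.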

How the results depend on the processing

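Of the counts and medians that summarise each comparison, those for DR against AL in total mRNA, for the DPAR directions of DM and for the DM polysomal decreases at any size moved by less than 1.5 times or 1 SD of the libraries in each setting tried, and 767 of 826 values over all settings stayed within these bounds. Apart from leaving out DM polysomal replicate 1, the settings that moved these summary values were scalings, edgeR with its own factors among them. The median log2 change of all genes moved by up to 0.41 with total counts (DM against DR in polysomal mRNA) and by up to 0.11 with the others. Of all genes called, the share called higher moved with total counts from 48.9% to 35.9% for polysomal against total mRNA in DR, from 52.5% to 35.8% for the DPAR of DR, from 47.7% to 75.8% for that of DM, from 37.8% to 51.4% for DM against AL in total and from 41.8% to 70.4% in polysomal mRNA, and from 50.7% to 77.6% for DM against DR in polysomal mRNA, and with TMM and edgeR from 37.8% to 49.8% for DM against AL in total mRNA.

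With total counts, the medians of the members were -0.37 for DR against AL in polysomal mRNA, 0.40 for polysomal against total mRNA in AL and -0.35 in DR (6 higher, 32 lower), -0.68 for the DPAR of DR (2 higher, 12 lower by 2-fold), -0.050 for DM against AL in total mRNA (11 higher, 17 lower) and -0.93 in polysomal mRNA (18 lower by 2-fold), -0.85 for the DPAR of DM (6 lower by 2-fold), -0.53 for DM against DR in total mRNA and -0.60 in polysomal mRNA (2 higher, 11 lower by 2-fold). Polysomal against total mRNA in DR changed sign for *rpl-7* (-0.0087), *rpl-11.1* (-0.00029) and *rpl-24.2* (-0.13).

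Median-ratio factors gave -0.18 for DR against AL in polysomal mRNA, 0.066 for polysomal against total mRNA in DR, which changed sign, -0.43 in DM (1 higher) and -1.15 for DM against AL in polysomal mRNA. TMM factors over the rows tested gave -0.19, 0.065 (changed sign), -0.45 for the DPAR of DR, -0.062 for DM against AL in total mRNA (11 higher, 19 lower), -1.15 in polysomal mRNA and -0.49 for DM against DR in total mRNA (5 higher). edgeR on the recovered reads gave -0.19, 0.066 (changed sign), -0.45, -0.062 (11 higher, 19 lower), -1.15 and -0.49 (5 higher). The mean summed level was 62922 (median-ratio) and 63605 CPM (TMM) in AL total, 89283 (total counts), 95580.0 and 95920.0 in AL polysomal, 93467, 85873 and 85982 in DR total, 79865, 97511 and 97594 in DR polysomal, 65013, 57302 and 61402 in DM total mRNA, and 48143 CPM (total counts) in DM polysomal mRNA. Other causes of these moves were not tested.

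When single libraries were left out, the median of polysomal against total mRNA in DM lay between -0.60 and -0.49 and that of DM against DR in polysomal mRNA between -1.09 and -0.97. Both lowest values came without DM polysomal replicate 1.

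Same-numbered libraries did not deviate together. Total and polysomal libraries of a condition with the same number correlated in their deviations at -0.098 to 0.083 in 12 pairs, and 4 of the 12 matched best with their own number. A replicate block over all groups left the counts as they were (43 higher for DR against AL in total mRNA and 45 lower for the DPAR of DM), and a block of total and polysomal libraries changed the lower count of polysomal against total mRNA in DR from 21 to 20. With differences taken within the numbers, exact sign-flip tests of the paralogs could not go below p = 0.125.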
